A study of Mus musculus with 8 samples.

Results

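The genes described here encode the oxygen sensing system of the hypoxia-inducible factor (HIF), and were followed in the retina of adult C57BL/6J mice after 3, 7 and 14 days of hyperoxia (75% oxygen), with mice in normal air as control (day 0). They are the alpha subunits *Hif1a* and *Epas1*, their partner *Arnt*, the oxygen sensors *Egln1*, *Egln2*, *Egln3* and *Hif1an*, the ubiquitin ligase subunit *Vhl*, and the secreted target gene products *Vegfa* and *Adm*. Every probe set (a group of short probes that measures a transcript) annotated to 1 of these 10 genes alone was taken, which gave 25 of the 45037 probe sets of the Affymetrix mouse array that are not controls. Each time has 2 arrays, so there are 8 in all. The mice were aged 80 to 120 days, carried no engineered allele, and were raised under 12 hours of dim light at 5 lux and 12 hours of darkness. Retinas of males and females were pooled at each time, according to the study's methods. Since it is not stated that replicate arrays hold separate pools, the spread that p-values are based on may be technical. In pooled tissue, fewer cells of a type and less RNA per cell cannot be told apart.

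HIF is a transcription factor made of an alpha subunit and ARNT. When oxygen is plentiful, the EGLN prolyl hydroxylases use it to hydroxylate the alpha subunit, VHL then binds the hydroxylated form and the proteasome degrades it, while HIF1AN hydroxylates a different residue and blocks binding of the coactivators EP300 and CREBBP. When oxygen is scarce, the alpha subunit is stable, enters the nucleus with ARNT and binds hypoxia response elements with the core ACGTG or GCGTG, near genes of glycolysis, vessel growth and the sensors themselves. In the retina this system is known above all from VEGF, whose level rises when oxygen is scarce and sets the growth and survival of vessels. Its control by oxygen acts mainly on HIF alpha protein, which an array of transcripts does not measure.

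The promoters of the 3 members that are themselves well known target genes (*Egln3*, *Vegfa*, *Adm*), of the sensor *Egln1* and of *Hif1a* are shown for the motif that the pathway reads. Each line holds the 250 bases before an annotated start, 5′ to 3′ on the strand of the gene, from RefSeq on build GRCm38.p6, with ACGTG or GCGTG on either strand in capitals.
Egln3, chr12:54203875-54204124, minus strand: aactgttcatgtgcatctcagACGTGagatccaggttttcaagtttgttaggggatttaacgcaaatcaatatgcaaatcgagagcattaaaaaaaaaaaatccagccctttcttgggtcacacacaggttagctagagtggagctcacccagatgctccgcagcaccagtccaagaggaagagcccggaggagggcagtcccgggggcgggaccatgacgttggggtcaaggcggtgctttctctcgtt
Vegfa, chr17:46032378-46032627, minus strand: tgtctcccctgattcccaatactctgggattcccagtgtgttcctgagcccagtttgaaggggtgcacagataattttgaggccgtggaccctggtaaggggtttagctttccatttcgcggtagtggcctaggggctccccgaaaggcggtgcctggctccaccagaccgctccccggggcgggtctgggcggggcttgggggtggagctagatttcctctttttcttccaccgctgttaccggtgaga
Adm, chr7:110627407-110627656, plus strand: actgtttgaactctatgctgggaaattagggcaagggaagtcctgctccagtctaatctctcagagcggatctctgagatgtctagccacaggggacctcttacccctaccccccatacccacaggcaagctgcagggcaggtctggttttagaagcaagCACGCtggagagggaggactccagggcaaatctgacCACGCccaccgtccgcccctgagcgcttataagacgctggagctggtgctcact
Egln1, chr8:124949255-124949504, minus strand: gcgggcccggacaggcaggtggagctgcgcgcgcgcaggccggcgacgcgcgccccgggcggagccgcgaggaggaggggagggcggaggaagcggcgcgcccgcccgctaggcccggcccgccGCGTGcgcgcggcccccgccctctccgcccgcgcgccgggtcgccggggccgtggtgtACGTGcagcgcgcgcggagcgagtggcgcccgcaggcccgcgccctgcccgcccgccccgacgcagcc
Hif1a, chr12:73907617-73907866, plus strand: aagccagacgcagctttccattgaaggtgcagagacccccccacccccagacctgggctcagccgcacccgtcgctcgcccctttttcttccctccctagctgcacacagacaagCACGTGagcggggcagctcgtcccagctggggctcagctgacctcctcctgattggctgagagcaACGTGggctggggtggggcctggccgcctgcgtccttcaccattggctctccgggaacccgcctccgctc
The window of *Egln3* holds 1 match, that of *Adm* holds 2, that of *Egln1* holds 2 and that of *Hif1a* holds 3, of which a pair overlaps in the palindrome CACGTG, which reads as ACGTG on both strands. The *Hif1a* window lies within the annotated span of the gene, at an internal start. No match lies in the *Vegfa* window shown, and a second *Vegfa* window at an internal start, not shown, holds 2. Of the 10 genes, 9 had an entry, with 11 windows, and 8 of the windows held a match. Among 32851 RefSeq promoter windows of the same length, 38.6% held a match, so these letters are common, and a match is not a binding site.

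The deposited values are log2 values from which the median of each probe set over the 8 arrays has been taken, so they show differences between arrays and hold no signal level. Whether a transcript lies above background, whether the retina's defining markers are present and how members rank against each other by level could not be read from them. Values below are these centred log2 values, and a difference of 1 is a 2-fold change. Replicate 2 of day 3 and replicate 2 of day 14 stand apart from the other 6 arrays. Their 3′ minus 5′ difference of *Gapdh*, a measure of RNA integrity and labelling, was 1.19 and 1.43, against -0.32 to 0.12 on the others, and their median over 10 reactive glia markers was 1.66 and 1.47, against -0.38 to 0.25. The quality table of the study gives a *Gapdh* ratio named 5′/3′, which is not the same measure as the difference used here. Its high values fall on both arrays of a single time and not on arrays of different times, so the labels of this pair are in doubt. Every array was taken at its label, and each mean of day 3 and day 14 below stands for that time only as far as these labels hold. The SD over all probe sets was highest on day 3 replicate 1 and day 7 replicate 2 (0.41 on each).

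At day 3 the members lay mostly below control, and at day 7 they did not lie to one side. At day 14 a smaller majority than at day 3 lay below. The members were chosen with earlier results of these data known, so these counts are a description and not a test. The difference between the means of day 3 and day 0 was negative for 21 of the 25 probe sets, against 44.6% of all probe sets, with a median of -0.35, against 0.04 over all probe sets. At day 7 it was negative for 12 (50.7% of all probe sets), with a median of 0.03. At day 14 it was negative for 15 (42%), with a median of -0.10, against 0.05 over all probe sets. Taken as gene means, 9, 5 and 7 of 10 were negative at days 3, 7 and 14 (40.8%, 51.9% and 36% of all genes). With replicate 1 of day 3 left out, 15 of 25 probe sets were negative at day 3 (43% of all probe sets, median -0.19). With replicate 2 left out instead, 21 were negative (47.8%, median -0.44). Without the pair that stands apart, 17 were negative at day 14 (45% of all probe sets, median -0.06). The gene count at day 14 was 8 of 10 without that pair and 5 of 10 without day 0 replicate 2. Array day 3 replicate 1 gave the lowest of the 8 values in 13 of the 25 probe sets (20% of all probe sets), so much of the day 3 count comes from that array.

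No member passed the test. Of the 25 probe sets, 0 had an adjusted p under 0.05 at any time against control or between any 2 times (limma with Benjamini-Hochberg adjustment over 45037 probe sets, 0% of which passed in any comparison). An unadjusted p under 0.05 was reached by 3 probe sets below control at day 3 (5.49% of all probe sets), by 1 below control at day 7 (0.435%), and by 0 at day 14 (8.27% in either direction). A difference of 2-fold or more was seen in 0 probe sets at day 3 (1.53% of all probe sets), in 1 at day 7, in *Egln3* (0.293%), and in 1 at day 14, in *Hif1a* (2.11%). Both arrays of a time lay below both control arrays in 7, 5 and 3 probe sets at days 3, 7 and 14 (17.8%, 12.3% and 18.3% of all probe sets), and above them in 1, 2 and 2 (24.7%, 12.3% and 27.7%). With 2 arrays against 2, an exact permutation test cannot give a two-sided p below 0.333 for a single value.

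**Figure D1:**
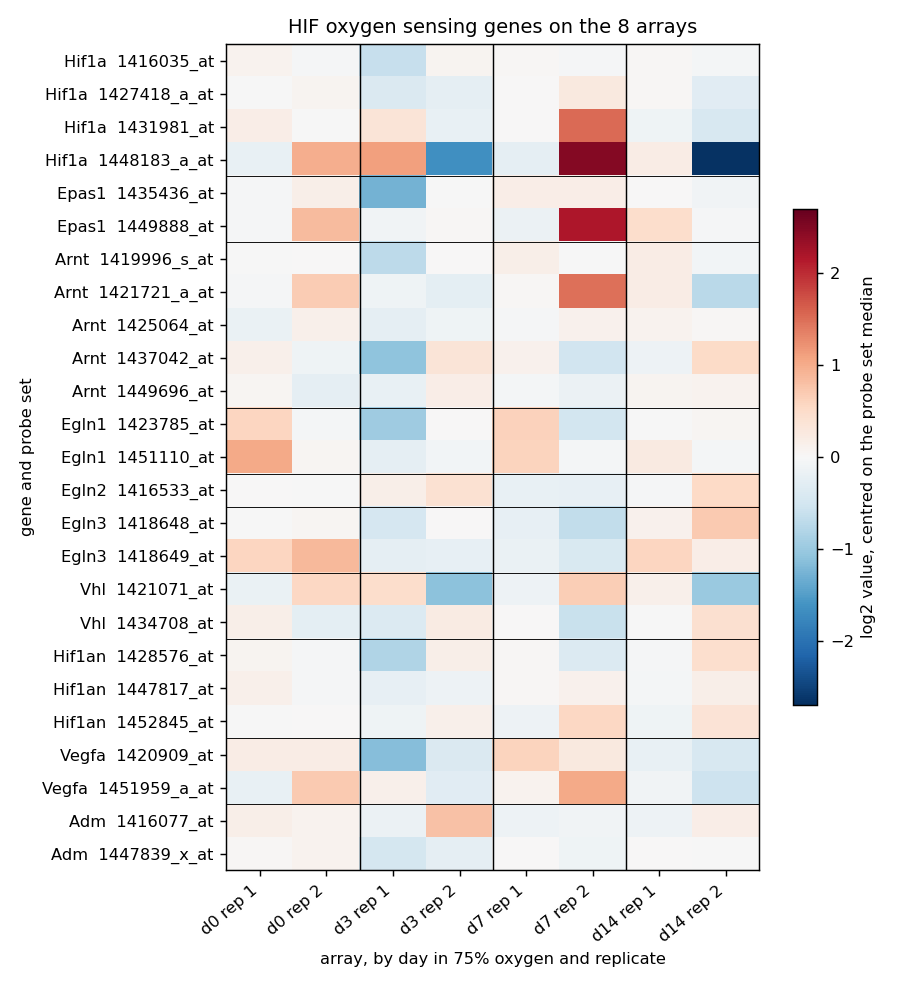
Centred log2 values of the 25 probe sets of the HIF oxygen sensing genes (rows) on the 8 arrays (columns, by day and replicate), with red above and blue below the median of the probe set. The column of day 3 replicate 1 is blue for most probe sets, and the darkest cells, 2.49 and -2.68, are both of *Hif1a* 1448183_a_at.

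**Figure D2:**
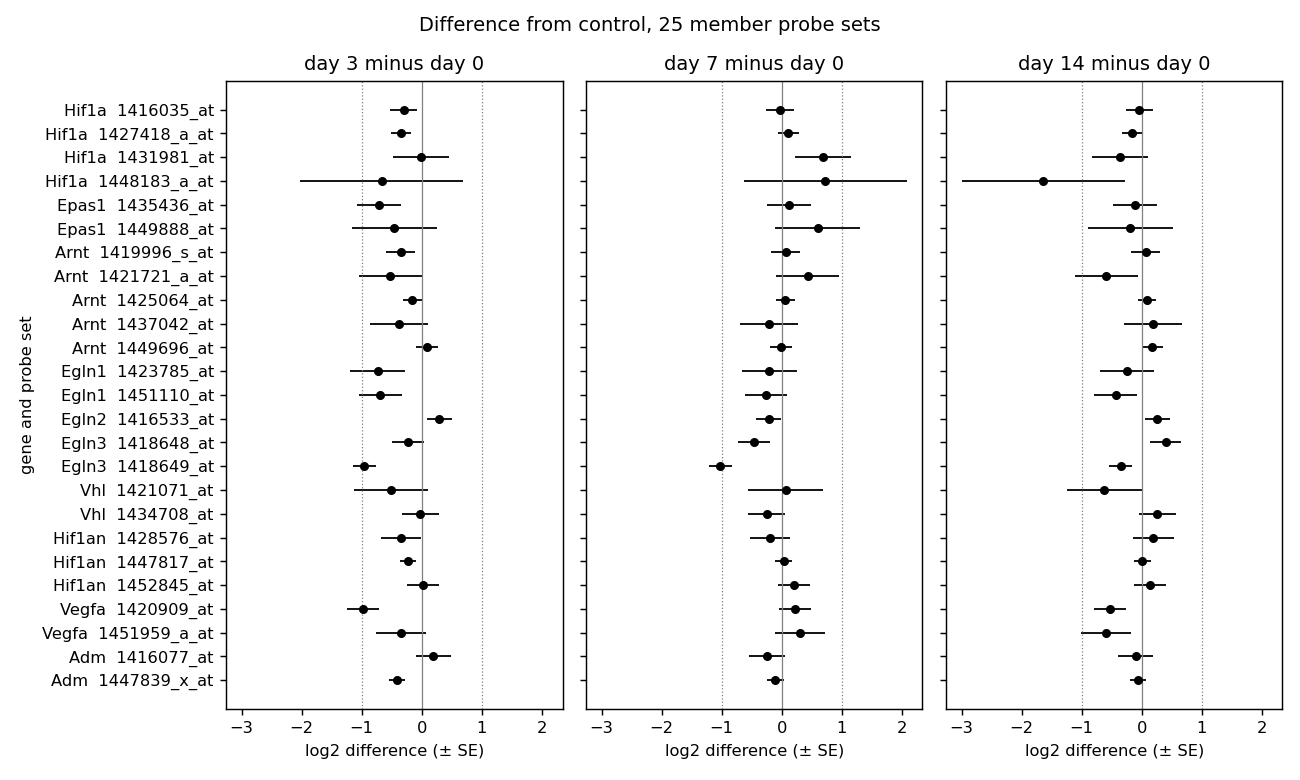
Difference of each exposure time from day 0 for the 25 probe sets, on the log2 scale, with bars of 1 SE from limma (n = 2 arrays at each time) and dotted lines at a 2-fold change. Points lie mostly left of 0 at day 3, and *Egln3* 1418649_at lies furthest left at day 7, at -1.02.

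*Egln3* encodes the prolyl hydroxylase PHD3, a sensor and also a target gene of HIF, and lies on chromosome 12 (54178981 to 54203874, RefSeq GRCm38.p6, as for all positions below). Its probe set with the widest spread over the arrays, 1418649_at, had the smallest p of the members. It gave 0.58 and 0.88 at day 0, -0.24 and -0.21 at day 3, -0.17 and -0.41 at day 7, then 0.58 and 0.17 at day 14. All 4 arrays of days 3 and 7 lay below both control arrays, and the day 14 arrays overlapped them. The difference from control was -0.96 ± 0.19 at day 3 (SE, n = 2 arrays each, limma adjusted p = 0.471) and -1.02 ± 0.19 at day 7 (adjusted p = 1), both close to a halving of the level. At day 14 it was -0.35 ± 0.19 (adjusted p = 0.663), and the mean of day 14 lay 0.67 ± 0.19 above that of day 7 (adjusted p = 0.415). Leaving out any 1 array kept the day 3 difference between -1.11 and -0.81 and the day 7 difference between -1.17 and -0.87, so both exceeded the spread between arrays while neither survived the adjustment.

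The second *Egln3* probe set, 1418648_at, gave -0.02 and 0.05 at day 0, -0.44 and 0.02 at day 3, -0.22 and -0.66 at day 7, then 0.12 and 0.70 at day 14. Its day 7 arrays lay below both controls and its day 14 arrays above them, with differences of -0.46 ± 0.27 (adjusted p = 1) and 0.40 ± 0.27 (adjusted p = 0.707). Both probe sets thus placed *Egln3* below control at day 7 and gave opposite signs at day 14. The genes outside the members whose probe sets followed 1418649_at most closely over the 8 arrays were *Krt15* (Pearson r = 0.98), *Calml3* (0.98) and *Krt13* (0.97), all 3 known from stratified surface epithelium. A list of 6 corneal and surface epithelium genes had medians of 0.86 and 2.04 at day 0, -1.41 and -1.12 at day 3, -0.01 and -0.61 at day 7, then 1.54 and 0.00 at day 14, with 6 of 6 genes below control in the mean at each time, but 3 of 6 at day 14 without day 14 replicate 2. The array order of this list was close to that of *Egln3*, and its part in the *Egln3* result was not tested.

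*Vegfa*, the growth factor for vessels (chromosome 17, 46016993 to 46032377), followed a different order. Probe set 1420909_at gave 0.20 and 0.21 at day 0, -1.15 and -0.39 at day 3, 0.61 and 0.26 at day 7, then -0.20 and -0.44 at day 14. The arrays of days 3 and 14 lay below both control arrays, those of day 7 above them, and no arrays of day 7 overlapped those of any other time. The difference from control was -0.97 ± 0.27 at day 3 (limma adjusted p = 0.471), 0.23 ± 0.27 at day 7 (adjusted p = 1) and -0.53 ± 0.27 at day 14 (adjusted p = 0.647). The largest difference of this probe set was between 2 exposure times, with day 7 1.20 ± 0.27 above day 3 (adjusted p = 0.347), a 2.3-fold difference. Without day 3 replicate 1 the day 3 difference from control was -0.59, and without day 3 replicate 2 it was -1.36, so its size rests on which array is kept while its sign does not.

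The second *Vegfa* probe set, 1451959_a_at, gave -0.19 and 0.72 at day 0, 0.14 and -0.30 at day 3, 0.09 and 1.03 at day 7, then -0.09 and -0.57 at day 14. Its differences from control were -0.34 ± 0.41, 0.30 ± 0.41 and -0.59 ± 0.41 at days 3, 7 and 14, the same signs as the first, with arrays that overlapped the controls at every time. The genes most like 1420909_at over the 8 arrays were *Arhgap28*, *Cecr2* and *Epc1* (r = 0.99 each). Muller glia are a main source of VEGF in the retina, and their 9 markers had medians of 0.01 and 0.05 at day 0, -0.31 and -0.35 at day 3, 0.22 and 0.36 at day 7, then -0.03 and -0.41 at day 14. In the mean, 8 of 9 were below control at day 3, 9 of 9 above at day 7 and 8 of 9 below at day 14. A list of 14 lens genes, from a tissue next to the retina, had control medians as far apart as -1.81 and 1.81. Of these genes, 12 were below control in the mean at day 3 (median difference -1.34). At day 7, 14 of 14 were above (3.01), and at day 14, 9 were above (0.45). Without day 0 replicate 2, 12 of 14 were above control at day 3. Both day 3 arrays lay below both controls in 0 of 14 (17.8% of all probe sets). Both day 7 arrays lay above both in 11 of 14 (12.3%). The part of either list in the *Vegfa* result was not tested.

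*Adm* encodes adrenomedullin, a peptide that widens vessels and supports endothelium (chromosome 7, 110627657 to 110629820). Its probe sets gave different pictures. Probe set 1447839_x_at gave 0.03 and 0.09 at day 0, -0.47 and -0.24 at day 3, 0.01 and -0.11 at day 7, then 0.00 and -0.00 at day 14, so that all 6 exposed arrays lay below both control arrays (1.76% of all probe sets). Its difference from control was -0.42 ± 0.14 at day 3 (adjusted p = 0.471) and -0.11 ± 0.14 and -0.06 ± 0.14 at days 7 and 14. The ending _x_at marks a probe set that can bind other transcripts. The other, 1416077_at, gave 0.15 and 0.10 at day 0, -0.15 and 0.79 at day 3, -0.15 and -0.10 at day 7, then -0.13 and 0.18 at day 14, and its day 3 difference of 0.19 ± 0.30 was -0.28 without day 3 replicate 2. Its closest genes were *Fblim1*, *Tnnt2* and *Nodal* (r of 0.96 to 0.97).

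**Figure D3:**
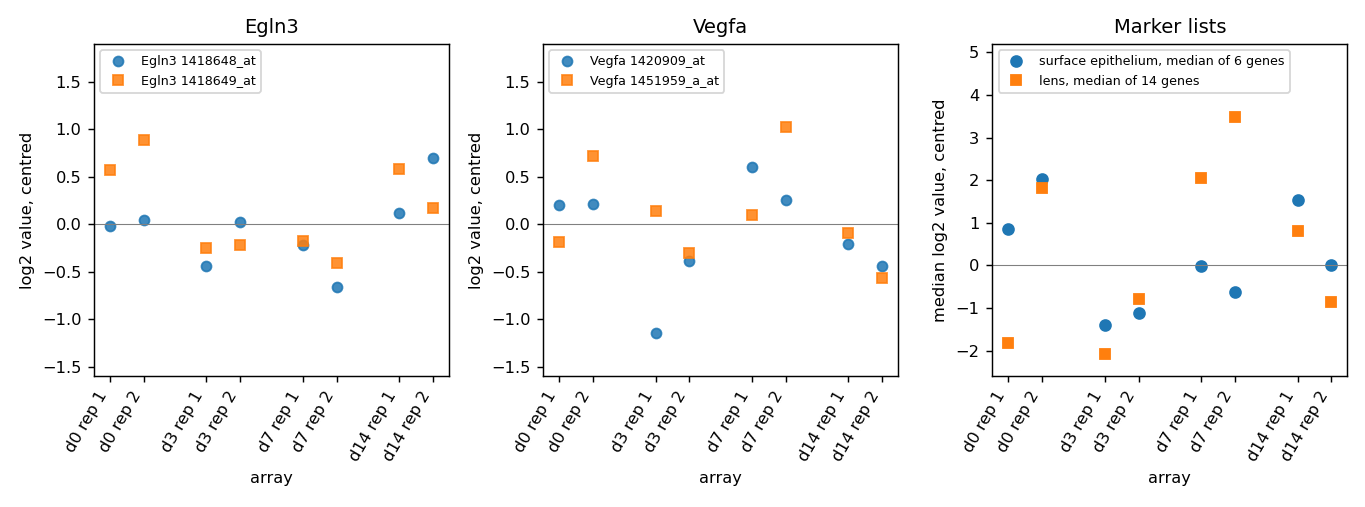
Centred log2 values on each array, in order of day and replicate, for both probe sets of *Egln3* (left) and *Vegfa* (middle), and the medians of the surface epithelium and lens marker lists (right). *Egln3* 1418649_at and the surface epithelium median are both low at days 3 and 7, and *Vegfa* 1420909_at is low at day 3 (-1.15 and -0.39) and high at day 7 (0.61 and 0.26).

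*Hif1a* (chromosome 12, 73901324 to 73947554) encodes the alpha subunit of HIF-1, and is measured by 4 probe sets that did not follow each other. The widest spread among all members was that of 1448183_a_at, with -0.19 and 0.98 at day 0, 1.11 and -1.65 at day 3, -0.24 and 2.49 at day 7, then 0.19 and -2.68 at day 14. The replicates of day 3, day 7 and day 14 lay 2.73 to 2.87 apart, on a scale where 1 is 2-fold, so the differences from control had an SE of 1.36. They were -0.67, 0.73 and -1.64 at days 3, 7 and 14 (adjusted p = 0.882, 1 and 0.753), and none exceeded the spread between arrays. Without day 3 replicate 2 the day 3 difference was 0.71, without day 7 replicate 2 the day 7 difference was -0.63, and without day 14 replicate 2 the day 14 difference was -0.20, so at each time the value came from 1 array.

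The other 3 probe sets had a narrower spread. Probe set 1416035_at gave 0.09 and -0.03 at day 0, -0.63 and 0.08 at day 3, 0.04 and -0.04 at day 7, then 0.03 and -0.05 at day 14, so it stood apart on day 3 replicate 1 alone. Probe set 1427418_a_at gave -0.01 and 0.07 at day 0, -0.40 and -0.23 at day 3, 0.01 and 0.27 at day 7, then 0.04 and -0.30 at day 14, and was the one *Hif1a* probe set with both day 3 arrays below both controls, by -0.35 ± 0.17 (adjusted p = 0.527). Probe set 1431981_at gave 0.18 and -0.02 at day 0, 0.34 and -0.20 at day 3, 0.02 and 1.54 at day 7, then -0.11 and -0.44 at day 14. At the array where they differed most, day 14 replicate 2, the 4 *Hif1a* probe sets spanned 2.63.

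The order of arrays seen in 1448183_a_at recurred in other members. The count below includes that probe set, from which the order was read, so it is a description and not a test. Arrays day 3 replicate 2 and day 14 replicate 2 were the 2 lowest and day 7 replicate 2 the highest in 5 of the 25 probe sets, against 4.21% of all probe sets. These are *Hif1a* 1431981_at and 1448183_a_at, *Arnt* 1421721_a_at, *Vhl* 1421071_at and *Vegfa* 1451959_a_at. The same pair gave the 2 highest arrays in 6 of the 25, a pattern whose share over all probe sets is not given here. Those are *Arnt* 1437042_at and 1449696_at, *Egln2* 1416533_at, *Vhl* 1434708_at, *Hif1an* 1428576_at and *Adm* 1416077_at. Over the 8 arrays *Hif1a* 1448183_a_at had r = 0.95 with *Vhl* 1421071_at and r = 0.90 with *Vegfa* 1451959_a_at, but r = -0.96 with the other *Vhl* probe set, 1434708_at. Probe sets of a single gene thus ran in opposite directions over the same arrays, and the genes outside the members closest to *Hif1a* 1448183_a_at were *Tug1*, *Idh3a* and *Lypla1* (r of 0.99 each). In the order of 1448183_a_at, the 2 lowest arrays are those with the high 3′ minus 5′ difference of *Gapdh*, and the highest, day 7 replicate 2, had the lowest (-0.32). Where the probes of each set lie along the transcript was not analysed here, and the part of RNA integrity in this order was not tested.

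**Figure D4:**
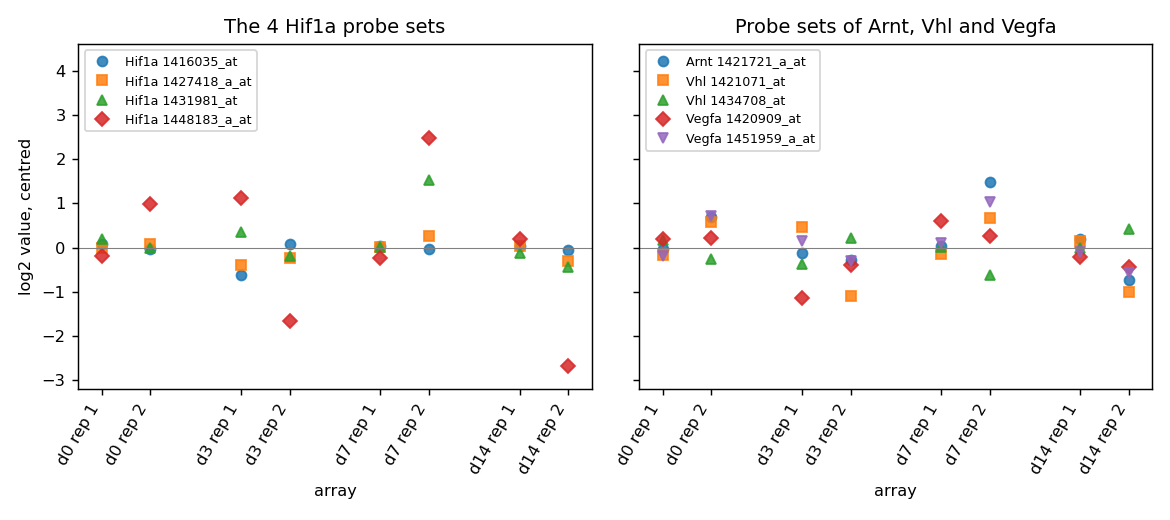
Centred log2 values on each array, in order of day and replicate, of the 4 *Hif1a* probe sets (left) and of *Arnt*, *Vhl* and *Vegfa* probe sets (right). *Hif1a* 1448183_a_at spans -2.68 to 2.49 while 1416035_at spans -0.63 to 0.09, and both *Vhl* probe sets mirror each other.

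*Arnt*, the constitutive partner of both alpha subunits (chromosome 3, 95434367 to 95497240), has 5 probe sets. Probe set 1421721_a_at gave -0.04 and 0.69 at day 0, -0.12 and -0.27 at day 3, 0.04 and 1.48 at day 7, then 0.20 and -0.74 at day 14, with differences from control of -0.52, 0.43 and -0.59 (SE 0.52). Its day 3 arrays lay below both controls, and without day 7 replicate 2 the day 7 difference was -0.29. Probe set 1437042_at ran the other way on several arrays, with 0.14 and -0.12 at day 0, -1.09 and 0.35 at day 3, 0.12 and -0.52 at day 7, then -0.13 and 0.53 at day 14. The other 3 probe sets of *Arnt* differed from control by -0.35 to 0.18, and at no time did the 5 share a sign.

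*Epas1* encodes HIF-2 alpha, known from endothelium and other vascular cells (chromosome 17, 86753864 to 86833410). Probe set 1449888_at gave -0.03 and 0.86 at day 0, -0.10 and 0.02 at day 3, -0.15 and 2.19 at day 7, then 0.47 and -0.02 at day 14, and its day 7 mean rests on replicate 2 (0.60 ± 0.71, against -0.57 without it). Probe set 1435436_at gave -0.02 and 0.16 at day 0, -1.27 and -0.02 at day 3, 0.18 and 0.18 at day 7, then 0.02 and -0.10 at day 14. Both had negative differences at days 3 and 14 and positive ones at day 7, and none passed the test (adjusted p of 0.537 or more). On 1435436_at both day 7 arrays lay above both controls, by 0.11 ± 0.37 in the mean, and the other comparisons with control overlapped.

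*Egln1* encodes PHD2, the main sensor of HIF-1 alpha in normal air (chromosome 8, 124908587 to 124949254). Probe set 1423785_at gave 0.58 and -0.05 at day 0, -0.96 and 0.01 at day 3, 0.62 and -0.50 at day 7, then -0.01 and 0.06 at day 14. Probe set 1451110_at gave 1.02 and 0.05 at day 0, -0.24 and -0.06 at day 3, 0.60 and -0.05 at day 7, then 0.25 and -0.05 at day 14. Both gave negative differences from control at all 3 times, -0.74 ± 0.45 and -0.69 ± 0.35 at day 3 (adjusted p = 0.591 and 0.535), and in both day 0 replicate 1 and day 7 replicate 1 stood above the other arrays of their time. The day 3 difference of 1423785_at was -0.42 if replicate 1 of control was left out, -0.25 if replicate 1 of day 3 was and -1.22 if replicate 2 of day 3 was.

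*Egln2*, the gene of PHD1 (chromosome 7, 27158658 to 27166802), has 1 probe set, 1416533_at. It gave 0.01 and -0.01 at day 0, 0.16 and 0.42 at day 3, -0.21 and -0.23 at day 7, then -0.03 and 0.54 at day 14. It was the one member above control on both day 3 arrays and was below control on both day 7 arrays, by 0.29 ± 0.21 and -0.22 ± 0.21 (adjusted p = 0.639 and 1). Day 7 lay -0.51 ± 0.21 from day 3 (adjusted p = 0.405).

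*Vhl*, the subunit that recognises the hydroxylated alpha subunit (chromosome 6, 113623994 to 113631634), gave -0.18 and 0.57 at day 0, 0.47 and -1.10 at day 3, -0.14 and 0.66 at day 7, then 0.14 and -0.996 at day 14 on 1421071_at. On 1434708_at it gave 0.16 and -0.26 at day 0, -0.37 and 0.22 at day 3, 0.01 and -0.61 at day 7, then -0.01 and 0.43 at day 14. Arrays of every time overlapped the controls on both. *Hif1an*, the gene of factor inhibiting HIF (chromosome 19, 44562854 to 44576274), gave 0.08 and -0.03 at day 0, -0.81 and 0.16 at day 3, 0.02 and -0.37 at day 7, then -0.02 and 0.46 at day 14 on 1428576_at. Its other 2 probe sets differed from control by -0.23 to 0.21. The adjusted p of *Vhl* and *Hif1an* probe sets was 0.589 or more in all 3 comparisons with control.

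Of the other genes of the pathway, those of glycolysis lay mostly below control in the mean at days 3 and 14. This list and those below were chosen with earlier results of these data known, so the counts are a description and not a test. HIF raises glucose uptake and glycolysis when oxygen is scarce, and of 16 measured glycolytic target genes, each taken as the mean of its probe sets, 15 had a negative difference at day 3, 9 at day 7 and 13 at day 14, against 40.8%, 51.9% and 36% of 18193 genes. Their medians were -0.44, -0.01 and -0.27, against 0.06, -0.01 and 0.08 over all genes. Both day 3 arrays lay below both controls in 10 of the 16 (16.1% of all genes), and both day 14 arrays in 8 (15.2%). None passed an adjusted p of 0.05, while 7 were below control at an unadjusted p under 0.05 at day 3 (4.61% of all genes). At day 14, 1 was (8.27% of all probe sets, in either direction). Without day 3 replicate 1, 14 of 16 were negative at day 3 (median -0.34), and without day 3 replicate 2 and day 14 replicate 2 together, 16 were negative at day 3 and 14 at day 14 (medians -0.54 and -0.23). The day 14 median rests on the control arrays, at -0.10 with replicate 1 of control left out and -0.43 with replicate 2 left out, with 13 genes negative in both cases. The number negative at day 7 was 3 if either replicate 1 of control or replicate 2 of day 7 was left out, and was 12 if replicate 1 of day 7 was.

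Among these genes, *Pfkp*, a phosphofructokinase, gave 0.34 and 0.78 at day 0, -0.25 and -0.88 at day 3, 0.91 and 0.64 at day 7, then -0.56 and -1.48 at day 14, with differences of -1.13 ± 0.34 at day 3 and -1.58 ± 0.34 at day 14 (adjusted p = 0.427 and 0.588). It thus shared with *Vegfa* 1420909_at arrays below control at days 3 and 14. *Hk1*, a hexokinase, differed by -1.10 ± 0.39 at day 3 and *Pgam1*, a phosphoglycerate mutase, by -0.81 ± 0.24. *Slc2a1*, the glucose transporter GLUT1, differed by -0.42 ± 0.17 at day 3 and by 0.10 ± 0.17 at day 14. Rod photoreceptors and Muller glia are rich in glycolytic enzymes, and on the same arrays the median of 11 rod marker genes was -0.30 and -0.26 at day 3, against 0.02 and 0.08 at day 0, with 10 of 11 below control in the mean. That of 9 Muller glia markers was -0.31 and -0.35 at day 3, against 0.01 and 0.05 at day 0, with 8 of 9 below. At day 14, 10 of 11 rod genes (median difference -0.20) and 8 of 9 Muller glia genes (-0.24) were below control, and without day 14 replicate 2 these were 4 of 11 (0.01) and 6 of 9 (-0.12). Their part in the glycolytic result was not tested.

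Of 25 other target genes, 18 had a negative difference at day 3, 9 at day 7 and 13 at day 14, with medians of -0.10, 0.05 and -0.14. Over all genes 40.8%, 51.9% and 36% were negative, with medians of 0.06, -0.01 and 0.08. With replicate 1 of day 3 left out, 14 of the 25 were negative at day 3. Leaving out control replicate 1 gave medians of -0.06 at day 3 and -0.02 at day 14, and leaving out control replicate 2 gave -0.19 and -0.07. Those with the smallest p over the 4 times were *Kdm3a*, a histone demethylase, *Ero1a*, an oxidase of the endoplasmic reticulum, *Ndrg1* and *Vldlr*, a lipoprotein receptor. *Kdm3a* gave 0.73 and 0.40 at day 0, -0.15 and -0.27 at day 3, 0.96 and 0.15 at day 7, then -0.16 and -0.55 at day 14. The same pair of times lay below control for *Ero1a* (-0.53 ± 0.29 and -0.78 ± 0.29) and *Vldlr* (-0.57 ± 0.20 and -0.53 ± 0.20), and *Ndrg1* differed by -0.61 ± 0.24 at day 3. None passed (adjusted p of 0.427 or more).

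Of 15 genes of HIF partners and degradation machinery, 9, 7 and 7 were negative at days 3, 7 and 14, against 40.8%, 51.9% and 36% of all genes. Their medians were -0.04, 0.00 and 0.01, against 0.06, -0.01 and 0.08 over all genes. The 2 of them with the smallest p were coactivator genes or their competitors. *Ep300* gave -0.00 and 0.22 at day 0, -0.26 and 0.00 at day 3, 0.34 and 0.30 at day 7, then -0.29 and -0.43 at day 14. *Cited2*, itself induced by HIF and a competitor for EP300, gave 0.32 and 0.14 at day 0, -1.17 and -0.30 at day 3, 0.09 and 0.15 at day 7, then -0.07 and -0.33 at day 14, with a day 3 difference of -0.96 ± 0.27 (adjusted p = 0.427). Parts of the VHL ligase ran in different directions at day 3, with *Elob* at 0.58 ± 0.22 and *Rbx1* at -0.34 ± 0.15.

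Of 14 ligands and receptors of VEGF and adrenomedullin, 6 were negative at day 3, 8 at day 7 and 2 at day 14, with medians of 0.05, -0.02 and 0.14. The shares over all genes were 40.8%, 51.9% and 36%, and the medians 0.06, -0.01 and 0.08. At day 14, 4 of the 14 were negative without day 0 replicate 2 or without day 14 replicate 1. *Flt1*, a VEGF receptor and HIF target, was below control, with differences of -0.57 ± 0.17 at day 3 and -0.45 ± 0.17 at day 14, and both arrays of each time below both controls. *Pgf*, a ligand of FLT1, lay 0.50 ± 0.18 above control at day 3 and 0.27 ± 0.18 above at day 14. *Flt4*, the receptor of lymphatic vessels, and its ligand *Vegfc* lay 0.32 ± 0.14 and 0.16 ± 0.12 above control at day 14. The lowest adjusted p in this list was 0.427. On the array pair that stands apart, the microglia and macrophage markers had medians of 1.21 and 1.14, against -0.26 to 0.23 on the others, while those of 11 endothelial markers were 0.14 and 0.14, against -0.32 to 0.05. The part of those cells in these values was not tested.

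**Figure D5:**
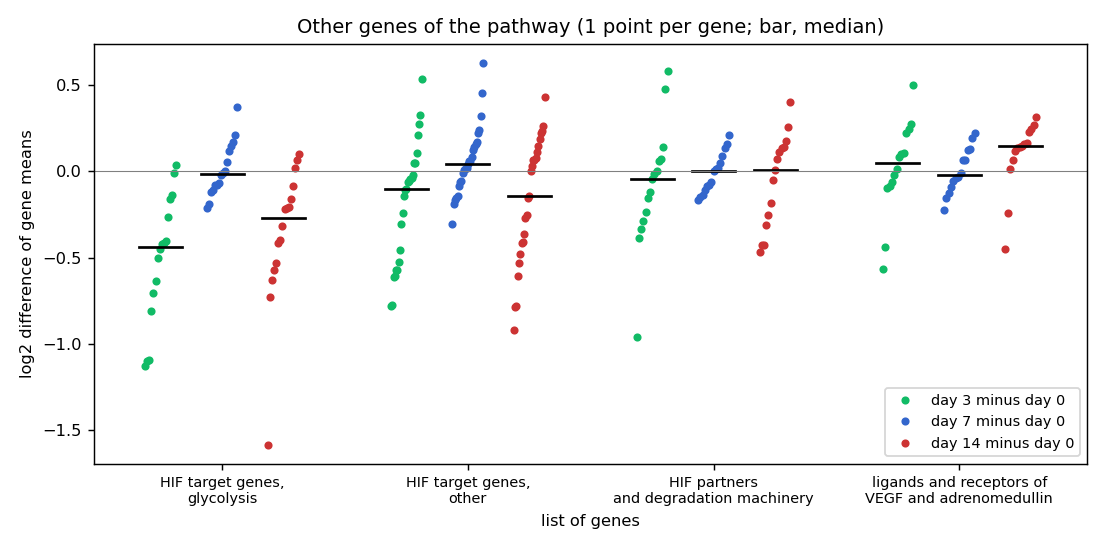
Difference of each exposure time from day 0 for the other genes of the pathway, on the log2 scale (1 point per gene, the mean of its probe sets, with black bars at the median of each list). The glycolytic target genes lie mostly below 0 at day 3 (median -0.44) and day 14 (-0.27) and around 0 at day 7. The ligands and receptors lie mostly above 0 at day 14 (0.14), when the median over all genes was also above 0 (0.08).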

How the data were processed

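RNA of 8 retinal samples at 4 times was grouped by the day in each title. Per the labels, the authors used RMA (background correction, quantile normalization, probe summary) for the deposited log2 values. The version is not given in the sources used here. A probe set's median over the 8 arrays is 0, so the values are centred and no filter on low signal was possible. The members and lists were chosen with earlier results of these data known. Annotation came from the platform's probe list and RefSeq (GRCm38.p6).

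A linear model with 1 mean per time was fitted to 45037 probe sets (64 controls left out) by limma, version 3.58.1, under R 4.3.3, with 4 residual and 2.71 prior degrees of freedom in eBayes and Benjamini-Hochberg adjustment. The fit was tested on simulated data. The lead probe set of a gene is that with the largest SD. In the other lists, up to 4 genes with the smallest F test p over gene means were named. For 4 members the 3 most correlated genes were named. Alternatives were further quantile normalization, median subtraction, a replicate block, robust eBayes, fits of 2 times alone, gene means, other probe sets and left-out arrays.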

Additional observations from a re-analysis of the deposited data

Results flagged for a closer look

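*Vegfa* 1420909_at lay above both controls on both day 7 arrays (0.23 in the mean) and below both on both day 3 and both day 14 arrays (-0.97 and -0.53). These comparisons share the day 0 arrays, and the day 7 difference itself was 1.20 ± 0.27 from day 3 (limma adjusted p = 0.347) and -0.75 ± 0.27 from day 14, counted as day 14 minus day 7 (adjusted p = 0.450). *Egln3* 1418648_at lay above both controls on both day 14 arrays (0.40) and below them on both day 7 arrays (-0.46), and day 14 lay 0.85 ± 0.27 above day 7 (adjusted p = 0.432). *Egln2* 1416533_at lay above both controls on both day 3 arrays (0.29) and below them on both day 7 arrays (-0.22), and day 7 lay -0.51 ± 0.21 from day 3 (adjusted p = 0.405). None of these differences between times passed the adjusted threshold. The share of all probe sets that lay above both controls at a time and below both at another is not given here. At a single time such a lack of overlap was common. Both arrays lay above both controls in 24.7%, 12.3% and 27.7% of all probe sets at days 3, 7 and 14. They lay below both in 17.8%, 12.3% and 18.3%. Whether members showed opposite sides more often than other probe sets was not tested.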

How the results depend on the processing

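The count of members past an adjusted p of 0.05 was 0 in every comparison under each alternative that kept 2 arrays at each time. In the main fit the lowest adjusted p over all probe sets was 0.471 for day 3 against day 0. For day 7 against day 3 it was 0.347. The value 0.471 was shared by *Egln3*, *Vegfa* and *Adm* probe sets with unadjusted p (limma) of 0.0018, 0.0086 and 0.021, so it does not rank them. At an unadjusted p under 0.05 the counts were 3, 1 and 0 at days 3, 7 and 14. The count at 2-fold was 0 at day 3, 1 after quantile normalization, 4 without day 3 replicate 2 and day 14 replicate 2 together, and 0 to 4 on leaving out 1 array. At day 7 it was 1, with 0 for gene means and 0 to 5 on leaving out 1 array. At day 14 it was 1, with 0 for gene means, 0 without both arrays and 0 to 3 on leaving out 1 array. The number of arrays limits precision.

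Replicate numbers did not pair the samples in the same way over all times. Deviations of same-numbered arrays correlated at 0.44 between days 0 and 7 and at 0.55 between days 3 and 14. For the other pairs of times the correlation was negative, from -0.40 to -0.22. The replicate block left the count past adjusted p at 0 in every comparison and changed no other call. A crossed replicate block, with numbers exchanged in days 3 and 14 and chosen after seeing the data, also gave 0.

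The sign of a lead probe set's difference from control turned for 15 of 30 differences on leaving out 1 array. The ranges were -2.05 to 0.71 and -0.63 to 2.09 for *Hif1a* at days 3 and 7, -0.57 to 1.77 and -0.64 to 0.26 for *Epas1* at days 7 and 14, -0.29 to 1.15 for *Arnt* at day 7, -0.77 to 0.35 and -0.55 to 0.070 for *Egln1* at days 7 and 14, and -0.026 to 0.54 for *Egln2* at day 14. They were -1.30 to 0.28 and -0.34 to 0.46 for *Vhl* at days 3 and 7, -0.83 to 0.13, -0.40 to 0.0017 and -0.048 to 0.43 for *Hif1an* at days 3, 7 and 14, and -0.28 to 0.67 and -0.26 to 0.053 for *Adm* at days 3 and 14. Without both arrays that stand apart, the sign turned for *Hif1a* (0.71), *Vhl* (0.28) and *Adm* (-0.28) at day 3 and for *Epas1* (0.059), *Egln2* (-0.026) and *Hif1an* (-0.048) at day 14. After quantile normalization it turned for *Vhl* at day 7 (-0.033). With gene means it turned for *Adm* at day 3 (-0.11), *Vhl* and *Hif1an* at day 7 (-0.094 and 0.014) and *Egln3* at day 14 (0.022). Other probe sets of the gene gave the other sign for *Hif1a* at day 7 (-0.028), *Arnt* at day 3 (0.084), day 7 (-0.22 and -0.016) and day 14 (0.063, 0.090, 0.19 and 0.18), *Egln3* at day 14 (0.40), *Vhl* at days 7 and 14 (-0.25 and 0.26), *Hif1an* at day 3 (0.017) and day 7 (0.033 and 0.21), and *Adm* at day 3 (-0.42). The cause was not tested. The day 3 and day 7 differences of lead *Egln3* and *Vegfa* probe sets, and the day 14 difference of *Vegfa*, kept their sign under every alternative. So did *Hif1a* at day 14, *Epas1* and *Egln1* at day 3, *Egln2* at days 3 and 7 and *Adm* at day 7. A kept sign says nothing of size, as *Hif1a* at day 14 ranged from -3.07 to -0.20 on leaving out 1 array and *Epas1* at day 3 from -0.90 to -0.0082.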
